A study of Mus musculus with 12 samples.

Results

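The genes described here encode the collagen chains of mouse brown adipose tissue, taken as every array probe set whose only gene symbol has the form Col, number, a, number. This gave 47 probe sets for 44 genes, of 23521 probe sets for 22180 genes with 1 symbol in all, and the probe set with the highest mean over the 12 arrays stood for its gene. They comprised 11 fibrillar chains, 6 type IV chains of the basement membrane and 27 others.

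Collagens are the triple-helical proteins of the extracellular matrix, each built from 3 alpha chains that are encoded by genes of their own. Fibrillar collagens (types I, III and V in most soft tissue) form the load-bearing fibres, type IV forms the sheet of the basement membrane that wraps each adipocyte and vessel, and the remaining types decorate fibrils, anchor sheets or span the cell membrane. The chains are folded and hydroxylated in the endoplasmic reticulum (ER) and leave it in enlarged carriers, and in adipose tissue fibroblasts and preadipocytes are known as the main source of fibrillar chains, with endothelium, mural cells and adipocytes contributing type IV. Sel1L partners the ligase Hrd1, and together they pull misfolded proteins out of the ER for degradation.

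The data are whole-transcript arrays of mouse brown adipose tissue, with 3 arrays in each of 4 groups. The groups were adipocyte-specific Sel1L knockout mice at 4 °C, wild-type mice at 4 °C, knockout mice at room temperature and wild-type mice at room temperature, and all mice had been fasted for 5 h at the stated temperature. Knockout mice (Sel1LAdipCre) carried floxed Sel1L alleles and a Cre recombinase under the Adipoq (adiponectin) promoter, the mice labelled wildtype were floxed (Sel1L f/f) littermates of that cross, and both lines were on the C57BL/6J background. The Adipoq promoter drives Cre in adipocytes, so fibroblasts, endothelium and other cells of the tissue keep Sel1L. No age is given in the labels. The design text speaks of isolated brown adipocytes and the sample labels of tissue.

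The adipocyte markers were present (10 of 10 above the array median on all arrays), and so were those of fibroblasts and preadipocytes (9 of 9), endothelium (11 of 11), mural cells (10 of 10) and macrophages (9 of 9). The same held for 8 of 12 skeletal muscle, 3 of 5 Schwann and nerve and 1 of 5 mesothelium markers. This bar is low, since 13498 of the 23521 probe sets with 1 symbol exceeded it on at least 3 arrays. The readings therefore include stromal markers, but the count does not decide between tissue and isolated adipocytes. In such bulk samples fewer cells of a type and less RNA per cell cannot be told apart. The mean log2 level of 12 skeletal muscle markers varied most between arrays, from 2.50 to 6.63 in the knockout-labelled 4 °C group, 4.87 to 7.95 in the wild-type 4 °C group, 2.82 to 6.40 in the knockout room-temperature group and 6.41 to 7.25 in the wild-type room-temperature group. Its part in the collagen readings was not tested. Sel1l itself was lower in the knockout group at room temperature, with 6.18, 6.09 and 5.92 against 7.37, 6.96 and 7.23 in wild type (log2 difference -1.12 ± 0.14 SE, limma adjusted p = 0.00114). At 4 °C it read 6.90, 6.73 and 6.54 on the knockout-labelled arrays and 6.99, 6.69 and 7.04 on the wild-type arrays (-0.19 ± 0.14, limma adjusted p = 0.605). The reading does not check the genotype label at 4 °C, so these arrays are called knockout-labelled, and every genotype difference at 4 °C rests on that label. Replicate 3 of the wild-type room-temperature group carries a source name that says 4 °C against a title and a characteristic that say room temperature. It was kept at room temperature, and the results it decides are also given with it moved. On this array Ppargc1a read 8.17 and Dio2 8.60. The other wild-type room-temperature arrays read 8.08 and 7.26 for Ppargc1a and 8.92 and 7.42 for Dio2. Wild-type arrays at 4 °C read 10.94 to 11.49 for Ppargc1a and 10.81 to 11.18 for Dio2. The endothelial markers were mixed. Kdr read 9.33 on this array and 8.59 and 8.23 on the others of its group. In wild type at 4 °C Kdr read 9.06 to 9.30. Emcn read 7.13 on this array, 7.02 and 6.88 on the others of its group, and 5.78 to 6.23 in wild type at 4 °C. Tek read 7.12, against 6.88 and 6.73, and 5.95 to 6.10 in wild type at 4 °C. The mean of the 11 endothelial markers was 7.08, against 6.77 and 6.65, and 6.79 to 7.11 in wild type at 4 °C. Which label is right was not tested.

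Col4a1 and Col4a2, whose products join in the most widespread type IV network, are shown first because they had the largest cold differences of the 44 chains in wild type and because their start sites lie side by side. In the knockout-labelled arrays Col12a1 differed by more than Col4a2 (0.91 against 0.62), and neither passed the test there. In RefSeq (GRCm38.p6) Col4a1 starts at position 11312826 of chromosome 8 on the minus strand and Col4a2 at 11312805 on the plus strand. The start sites lie 21 bases apart and the genes run in opposite directions, each start lying just inside the other transcript. The RefSeq promoter windows of the pair (250 bases before and 50 after a start) share 78 bases. The stretch below covers both starts with 60 bases beyond each, and for comparison the stretch upstream of Col27a1, a fibrillar chain that also moved with temperature, is given. Both are written on the plus strand, and capitals mark the CCAAT box (CCAAT) and the GC box (GGGCGG) on either strand.

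Col4a1 and Col4a2, chr8:11312745-11312886: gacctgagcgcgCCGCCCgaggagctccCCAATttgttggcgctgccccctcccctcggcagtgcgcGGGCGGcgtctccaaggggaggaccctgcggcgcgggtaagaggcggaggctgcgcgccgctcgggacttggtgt

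Col27a1, chr4:63215162-63215411: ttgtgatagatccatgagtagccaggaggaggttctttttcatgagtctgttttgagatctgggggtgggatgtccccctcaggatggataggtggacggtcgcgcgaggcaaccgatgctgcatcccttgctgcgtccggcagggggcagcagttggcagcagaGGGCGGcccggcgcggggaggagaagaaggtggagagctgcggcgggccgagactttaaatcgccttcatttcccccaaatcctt

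The 142-base stretch around the starts of Col4a1 and Col4a2 holds 1 CCAAT box and 2 GC boxes. Of these, 1 GC box (positions 11312812 to 11312817) lies between the start sites, and the CCAAT box and the other GC box lie upstream of the Col4a2 start, inside Col4a1. The 250-base stretch before Col27a1 holds 1 GC box and no CCAAT box. The full RefSeq windows hold 1 CCAAT box and 1 GC box for Col4a1, 1 CCAAT box and 3 GC boxes for Col4a2, and 2 GC boxes and no CCAAT box for Col27a1. Over all 32851 such windows, 37.4% held CCAAT and 35.7% held GGGCGG on either strand. A window was listed for 35 of the 44 collagen genes, of which 13 held CCAAT and 22 held GGGCGG. The cAMP response element TGACGTCA was present in 1 of these 35, that of Col24a1, against 1.79% of all windows. The hypoxia response core ACGTG was present in 5 of them, against 19.6% of all windows, and in neither stretch printed. These are matches of letters and not measured binding. The pair Col4a1 and Col4a2 is 1 of several sets of neighbouring collagen genes in the genome, beside Col3a1 and Col5a2, Col6a2 and Col6a1, Col4a4 and Col4a3, Col4a6 and Col4a5, Col9a1 and Col19a1, and the run of Col6a6, Col6a5 and Col6a4.

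Not every chain gave a usable signal. The arrays' medians over all probe sets lay between 2.03 and 2.09 on the log2 scale, and 23 to 27 of the 44 chains read above the median of a given array. On all 12 arrays 21 chains did, among them 7 fibrillar chains (Col1a1, Col1a2, Col3a1, Col5a1, Col5a2, Col5a3 and Col27a1), 3 type IV chains (Col4a1, Col4a2 and Col4a5) and 11 others. On none did 12, namely Col4a6, Col6a4, Col8a2, Col9a3, Col10a1, Col11a1, Col11a2, Col17a1, Col19a1, Col22a1, Col24a1 and Col28a1. These include the cartilage chains of types X and XI and the epithelial Col17a1, and their readings lay between 1.12 and 1.95. The other 11 crossed the median on some arrays only. Nearest to the median were Col26a1, with a mean of 2.03 and 5 arrays above it, and Col13a1, with a mean of 2.10 and 7 arrays above it. Against the higher median of the probe sets with 1 symbol, 16 chains stood above it on all arrays and 20 to 24 on a given array. For the dim chains a difference near 0 says little, because the array compresses changes near its background.

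**Figure D1:**
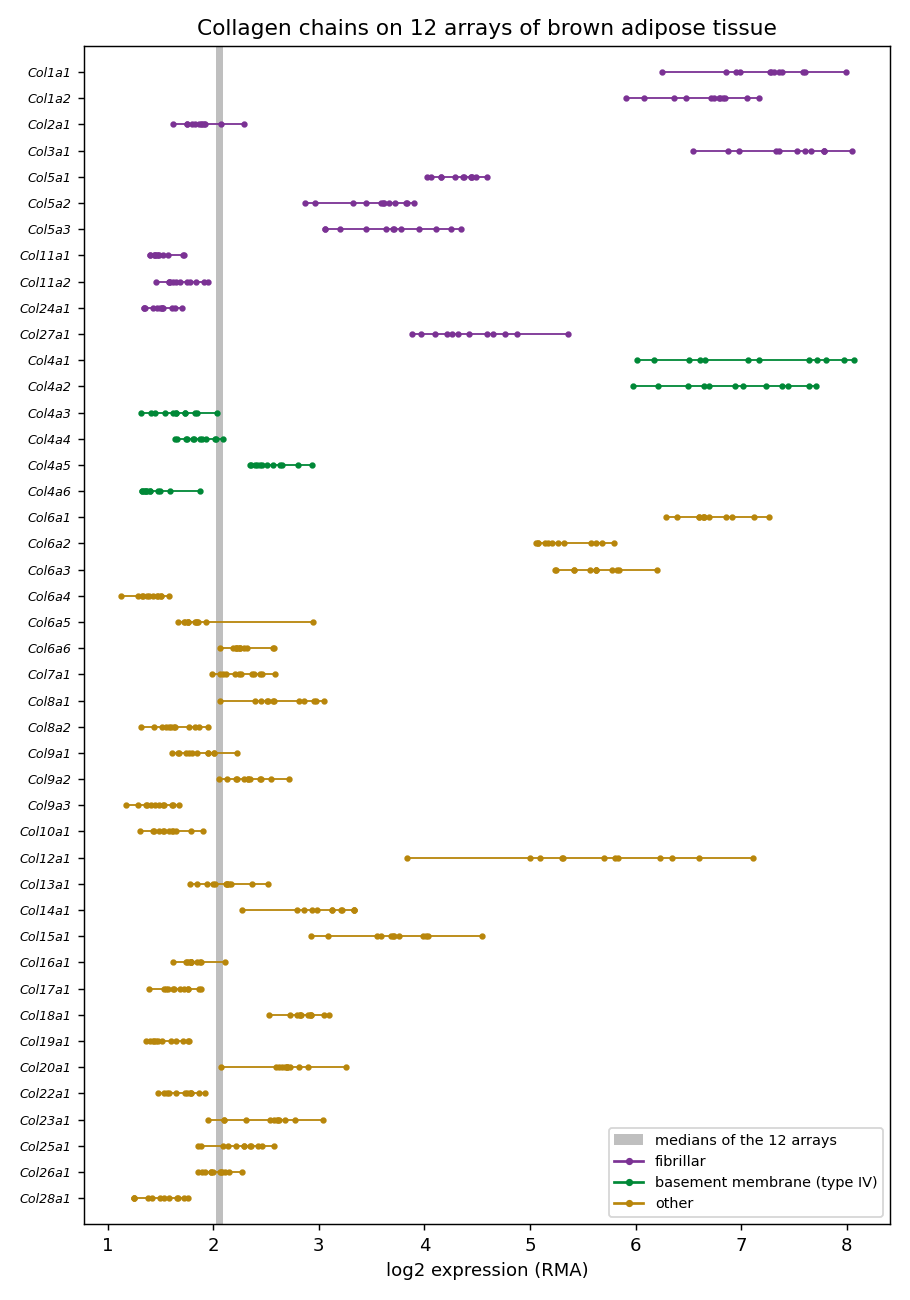
Log2 expression of each of the 44 collagen chains on the 12 arrays (points, with a line from the lowest to the highest), grouped as fibrillar, type IV and other, with the band of the array medians in grey. The 21 chains above the median of each array, some of which touch the band, include Col1a1, Col3a1, Col4a1 and Col4a2, and 12 chains stay to its left on all arrays.

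The collagen chains with the smallest adjusted p-values were the basement membrane chains Col4a1 and Col4a2 in the cold. Both were higher at 4 °C than at room temperature in wild-type tissue, by more than the spread between arrays. In wild-type mice at 4 °C, 3 of 44 chains rose and 0 fell relative to room temperature (limma, Benjamini-Hochberg adjusted p under 0.05 over all 23521 probe sets), which is 6.82% higher beside 4.85% of all probe sets that rose and 6.23% that fell (11.1% in either direction). That share is near the background, so the result concerns the individual chains and not collagens as a set. The median difference over the 44 chains was 0.06, beside -0.01 over all probe sets.

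Col4a1 encodes the alpha 1 chain of type IV collagen. It read 8.07, 7.97 and 7.17 in wild-type tissue at 4 °C, against 6.02, 6.17 and 6.66 in wild-type tissue at room temperature. The groups did not overlap, and the gap between the lowest 4 °C array and the highest room-temperature array lay between replicate 3 of each. The difference was 1.46 ± 0.23 SE (95% interval 0.95 to 1.96), or 2.74-fold, with a limma adjusted p of 0.00200.

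In the knockout-labelled group at 4 °C Col4a1 read 7.72, 7.80 and 7.64, against 7.07, 6.50 and 6.61 in the knockout group at room temperature. The groups again did not overlap, and the difference was 0.99 ± 0.23 (1.99-fold, limma adjusted p = 0.0188). It was the only 1 of the 44 chains that passed the test there, 2.27% beside 9.03% of all probe sets called and 4.32% that rose. The call was lost without knockout-labelled 4 °C replicate 1 (adjusted p = 0.0597) or 2 (0.0717), and without knockout room-temperature replicate 2 (0.0800) or 3 (0.0672). The cold response was 0.46 smaller in the knockout-labelled arrays than in wild type, but the interval of that difference ran from -1.18 to 0.26 (limma adjusted p = 0.724), so a difference between the cold responses was not shown. Averaged over genotype, Col4a1 was 1.22 ± 0.17 higher at 4 °C (limma adjusted p = 0.000273), and all 6 arrays at 4 °C lay above all 6 at room temperature, which held for 1 of the 44 chains beside 3.05% of all probe sets.

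Col4a2 encodes the alpha 2 chain, which joins alpha 1 chains in the same trimer. Its readings were 7.71, 7.64 and 6.94 in wild-type tissue at 4 °C, against 5.98, 6.22 and 6.65 in wild-type tissue at room temperature. As for Col4a1, replicate 1 of each group read farthest apart and the groups did not overlap. The difference was 1.15 ± 0.22 (2.22-fold, limma adjusted p = 0.00478). On the knockout-labelled arrays at 4 °C it read 7.39, 7.45 and 7.23, against 7.02, 6.69 and 6.50 in knockout tissue at room temperature. These groups did not overlap either, but the difference of 0.62 ± 0.22 did not pass the test (limma adjusted p = 0.110). It passed without wild-type 4 °C replicate 3 (0.0440) and in a fit of only the 6 arrays compared (0.0380). The cold responses differed by -0.53 (95% interval -1.20 to 0.14, limma adjusted p = 0.633).

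The wild-type room-temperature array with conflicting labels read 6.66 for Col4a1 and 6.65 for Col4a2, the highest of its group and below each wild-type array at 4 °C. Without it, Col4a1 and Col4a2 kept their calls in wild type. With it moved to 4 °C, the adjusted p-values were 0.115 and 0.114 in wild type and 0.0958 for Col4a1 in the knockout-labelled arrays, so that no chain was called in either cold comparison. The averages over genotype then gave adjusted p-values of 0.0103 for Col4a1 and 0.0148 for Col4a2.

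The other type IV chains did not pass the test in any comparison. Col4a5, which belongs to a rarer network, read 2.40, 2.51 and 2.41 on the knockout-labelled arrays at 4 °C and 2.94, 2.80 and 2.63 in knockout tissue at room temperature. The groups did not overlap, yet the difference of -0.35 did not pass the test (limma adjusted p = 0.0909), and in wild type it was -0.02. Col4a3, Col4a4 and Col4a6 stayed near or below the array median, with readings from 1.32 to 2.09. Lamb1, which encodes the beta 1 laminin chain of the same membrane, rose in the cold in the knockout-labelled arrays by 0.89 ± 0.16 (limma adjusted p = 0.00392) and in wild type by 1.16 ± 0.16 (0.000763). Both calls were lost with the conflicting array moved (0.0956 and 0.179). Lama4, another laminin gene, went the other way. Lama4 averaged 6.86 in the knockout-labelled 4 °C group and 8.18 in knockout tissue at room temperature. In wild type Lama4 averaged 6.70 at 4 °C and 8.02 at room temperature. Of the 19 listed fibril and basement membrane partners, 3 rose and 1 fell in the cold in the knockout-labelled arrays. In wild type 2 of the 19 rose and 2 fell. Endothelial markers, a possible source of type IV chains, averaged 6.74 in the knockout-labelled 4 °C group and 6.96 in the wild-type 4 °C group, against 6.60 in knockout and 6.83 in wild-type tissue at room temperature. Of the 11 endothelial markers, 3 rose and 2 fell in wild type in the cold, and 2 rose and 2 fell in the knockout-labelled arrays. Over all probe sets 4.85% rose and 6.23% fell in wild type, and 4.32% rose and 4.70% fell in the knockout-labelled arrays. Mural markers averaged 6.20 in the knockout-labelled 4 °C group and 6.40 in the wild-type 4 °C group, against 6.56 in knockout and 6.68 in wild-type tissue at room temperature. The part of these cells in the type IV readings was not tested.

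**Figure D2:**
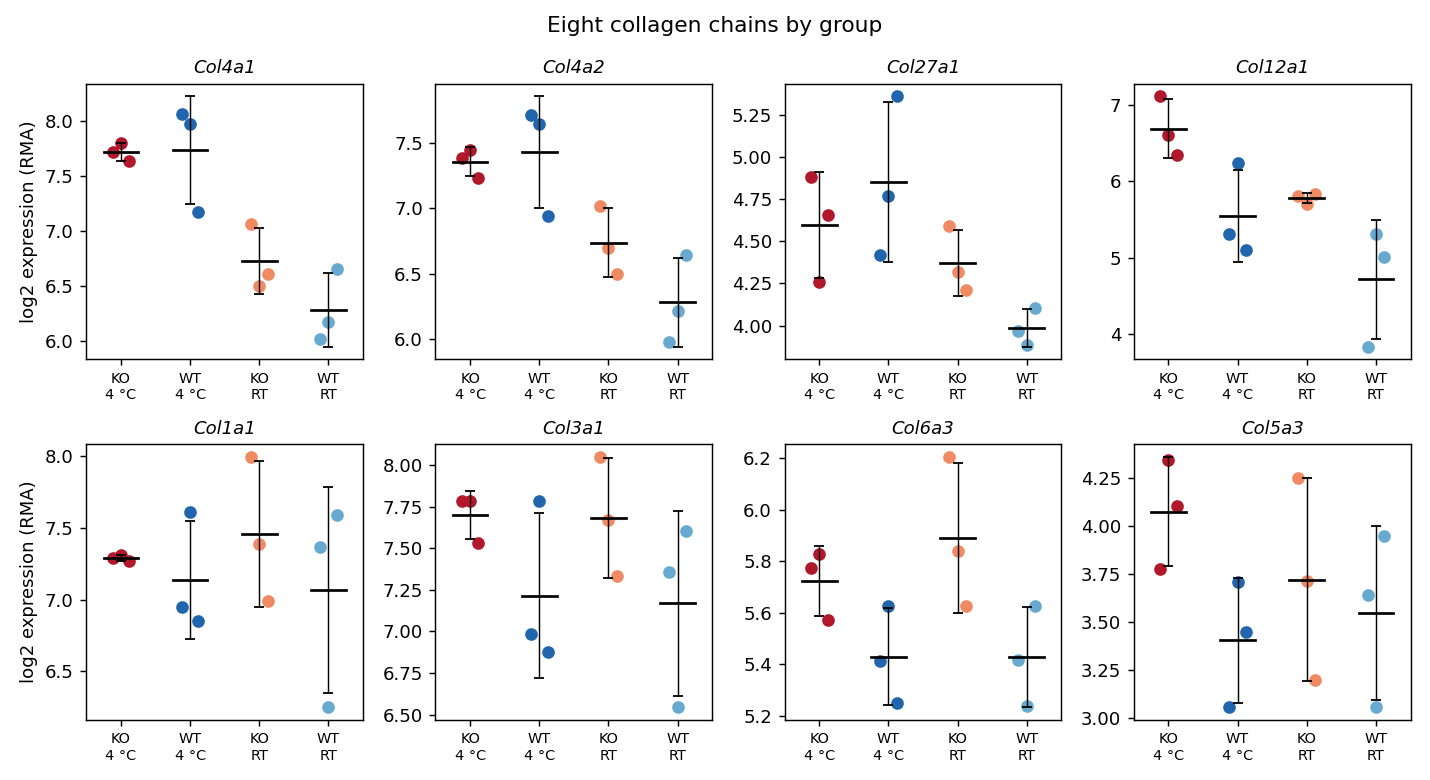
Log2 expression of 8 collagen chains by group, knockout (KO) left of wild type (WT) at 4 °C and at room temperature (RT). Points are arrays, thick lines are group means and error bars are SD (n = 3). Col4a1 and Col4a2 stand higher at 4 °C, Col12a1 stands higher in KO at each temperature, and for Col1a1 and Col3a1 the arrays of different groups overlap.

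Among the fibrillar chains, Col27a1 was the 1 chain of 11 that passed a test. It encodes the chain of type XXVII collagen, a homotrimer best known from cartilage. It read 4.42, 4.77 and 5.36 in wild-type tissue at 4 °C, against 3.96, 3.89 and 4.10 in wild-type tissue at room temperature. The groups did not overlap and the difference was 0.86 ± 0.22 (1.82-fold, limma adjusted p = 0.0225). The knockout-labelled arrays at 4 °C read 4.88, 4.26 and 4.65, against 4.59, 4.32 and 4.21 in knockout tissue at room temperature, which overlap (0.23 ± 0.22, limma adjusted p = 0.660). The cold responses differed by -0.64 (95% interval -1.31 to 0.03, limma adjusted p = 0.537), so a smaller response in the knockout-labelled arrays was not shown. The wild-type call was lost without wild-type 4 °C replicate 2 (0.0543) or 3 (0.0561), without wild-type room-temperature replicate 1 (0.0682) or 2 (0.0740), with only the 6 arrays compared (0.0565), with all probe sets tested (0.0552), and with the conflicting array moved (0.247).

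Col1a1, Col1a2 and Col3a1, the chains of the main collagen fibres, did not pass the test in any comparison and varied widely between arrays of a group. Col1a1 read 7.29, 7.31 and 7.27 on the knockout-labelled arrays at 4 °C, 6.95, 7.61 and 6.85 in wild type at 4 °C, 7.99, 7.39 and 6.99 in knockout at room temperature, and 7.36, 6.25 and 7.59 in wild type at room temperature. The highest and the lowest of the 12 values both came from room temperature, and the groups overlapped in each comparison. Its cold difference was -0.17 ± 0.33 in the knockout-labelled arrays and 0.07 ± 0.33 in wild type. With residual SDs of 0.48 for Col1a1, 0.43 for Col1a2 and 0.42 for Col3a1, beside a median of 0.18 over all probe sets, the arrays could place the Col1a1 cold difference in wild type only between -0.64 and 0.78.

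Col3a1, the chain of type III fibres, read 7.78, 7.78 and 7.53 on the knockout-labelled arrays at 4 °C, against 6.98, 7.78 and 6.88 in wild type at 4 °C. At room temperature it read 8.05, 7.67 and 7.33 in knockout and 7.35, 6.54 and 7.61 in wild type. The means were higher on the knockout side at both temperatures, while the groups overlapped. The difference averaged over temperature was 0.50 (95% interval 0.06 to 0.94) and did not pass the test (limma adjusted p = 0.190). The same average was 0.27 for Col1a1 (-0.23 to 0.77, adjusted p = 0.619) and 0.14 for Col1a2 (-0.31 to 0.59, adjusted p = 0.801). A second probe set for Col1a2 gave 0.24 (adjusted p = 0.608).

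The chains of type V collagen, which sits in the core of type I fibrils and limits their width, gave a like picture. Col5a3 read 3.78, 4.35 and 4.11 on the knockout-labelled arrays at 4 °C, against 3.06, 3.71 and 3.45 in wild type at 4 °C, without overlap. The difference of 0.67 (95% interval 0.06 to 1.28) did not pass the test (limma adjusted p = 0.235), and at room temperature it was 0.17. Col5a2 averaged 3.74 ± 0.08 on the knockout-labelled arrays and 3.31 ± 0.39 on the wild-type arrays at 4 °C (SD, n = 3 each), again without overlap (0.43, limma adjusted p = 0.372). Col5a1 averaged 4.40 ± 0.04 on the knockout-labelled and 4.31 ± 0.27 on the wild-type arrays at 4 °C, with a difference of 0.08 (adjusted p = 0.875). A second Col5a1 probe set read below the median on all 12 arrays and showed no call. The remaining fibrillar chains, Col2a1, Col11a1, Col11a2 and Col24a1, read between 1.34 and 2.30 and were not called in any comparison.

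The genotype comparisons called few chains. At room temperature 0 of 44 passed the test in limma, beside 1.72% of all probe sets. At an unadjusted p under 0.05 there were 4 (Col4a5, Col6a3, Col9a1 and Col12a1), which is 9.09% beside 13.0% of all probe sets. At 4 °C 0 of 44 passed in limma, beside 5.80% of all probe sets. At an unadjusted p under 0.05 there were 3 (Col5a3, Col8a1 and Col12a1), which is 6.82% beside 16.9% of all probe sets. The medians over the 44 chains were 0.09 at room temperature and 0.03 at 4 °C, beside -0.01 over all probe sets in both. Groups did not overlap for 4 chains higher and 1 lower in knockout at room temperature, beside 8.76% and 8.62% of all probe sets. At 4 °C they did not for 3 higher (Col5a2, Col5a3 and Col12a1) and 2 lower (Col8a1 and Col11a2), beside 11.2% and 10.7%. Both genotype comparisons come from 1 fit, and the cold comparisons use the same arrays.

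Averaged over temperature, 1 chain of 44 rose in the knockout-labelled arrays and 0 fell, which is 2.27% beside 4.24% of all probe sets that rose and 2.73% that fell. Taking both temperatures together, the groups overlapped for the probe sets that stood for the 44 chains, while 1.85% of all probe sets stood wholly higher. The chain that rose was Col12a1, a fibril-associated chain that binds the surface of type I fibrils and is known from tissue under tension. It read 7.12, 6.61 and 6.35 on the knockout-labelled arrays at 4 °C, against 5.31, 6.24 and 5.10 in wild type at 4 °C. At room temperature it read 5.81, 5.71 and 5.83 in knockout, against 3.83, 5.30 and 5.01 in wild type. At each temperature all knockout-labelled arrays lay above all wild-type arrays, and wild-type room-temperature replicate 1 was the lowest of the 12.

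The average genotype difference of Col12a1 was 1.10 ± 0.25 (2.15-fold, limma adjusted p = 0.0187). It was lost without knockout-labelled 4 °C replicate 1 (0.0506) or wild-type 4 °C replicate 1 (0.05001). Within a temperature the difference was 1.14 ± 0.36 at 4 °C (adjusted p = 0.0931) and 1.07 ± 0.36 at room temperature (0.196), and neither passed. The 4 °C difference passed without wild-type 4 °C replicate 2 (0.0338) or wild-type room-temperature replicate 1 (0.0301). Col12a1 also had the largest residual SD of the 44 chains, 0.53.

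Col12a1 was higher in the cold as well, by 0.91 ± 0.36 in the knockout-labelled arrays (limma adjusted p = 0.159) and 0.83 ± 0.36 in wild type (0.179). Averaged over genotype the cold difference was 0.87 ± 0.25 (1.83-fold, limma adjusted p = 0.0303). With Col4a1, Col4a2 and Col27a1 it made 4 of 44 chains that rose in the cold on average, 9.09% beside 7.51% of all probe sets that rose, with 0 that fell beside 10.1% (17.6% in either direction). The average cold call of Col12a1 was lost without knockout-labelled 4 °C replicate 1 (0.0804) or 2 (0.0543), wild-type 4 °C replicate 2 (0.0706), or knockout room-temperature replicate 1 (0.0521), 2 (0.0626) or 3 (0.0541), with all probe sets tested (0.0698) and with the conflicting array moved (0.0650). That of Col27a1, at 0.54 ± 0.15 (0.0262), was lost without knockout-labelled 4 °C replicate 1 (0.0701) or 3 (0.0560), knockout room-temperature replicate 2 (0.0563) or 3 (0.0630), or wild-type room-temperature replicate 1 (0.0542) or 2 (0.0579), and likewise with all probe sets tested (0.0583) or the array moved (0.155).

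**Figure D3:**
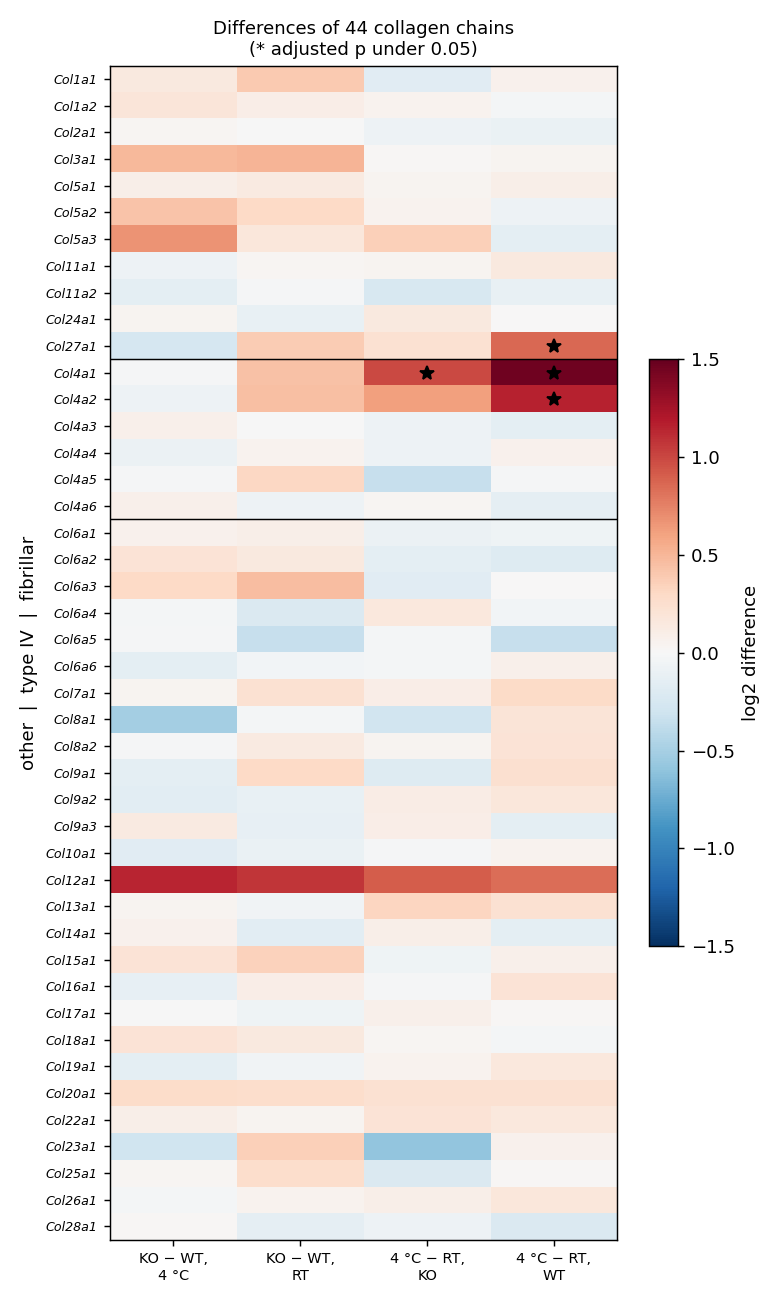
Log2 differences of the 44 collagen chains in 4 comparisons (red higher and blue lower in the group named before the minus sign, KO for knockout-labelled, RT for room temperature), with fibrillar chains at the top, type IV in the middle and the others below. Stars mark the 4 differences with an adjusted p under 0.05: Col27a1, Col4a1 and Col4a2 in the cold in WT, and Col4a1 in the cold in KO.

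Type VI collagen forms the beaded microfilaments around adipocytes, from chains encoded by Col6a1, Col6a2 and Col6a3. Col6a3 read 5.77, 5.83 and 5.57 on the knockout-labelled arrays at 4 °C, against 5.41, 5.63 and 5.25 in wild type at 4 °C. At room temperature it read 6.21, 5.84 and 5.63 in knockout and 5.42, 5.24 and 5.63 in wild type. The room-temperature groups just failed to overlap (0.46, limma adjusted p = 0.212), and the average over temperature was 0.38 ± 0.11 (1.30-fold, adjusted p = 0.0690), which passed only without knockout room-temperature replicate 3 (0.0392). Col6a2 differed by 0.17 on average (95% interval -0.13 to 0.48, adjusted p = 0.584).

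The probe sets of Col6a1 disagreed. The brighter, which stands for the gene, differed by 0.07 ± 0.16 on average over temperature (adjusted p = 0.877). The dimmer read 3.78, 3.79 and 3.48 on the knockout-labelled arrays at 4 °C, against 3.41, 3.45 and 3.45 in wild type at 4 °C. At room temperature it read 4.05, 3.51 and 3.61 in knockout and 3.17, 3.25 and 3.30 in wild type. The average difference of this dimmer probe set, 0.36 ± 0.10, passed the test (limma adjusted p = 0.0441). Over both temperatures all its knockout and knockout-labelled readings lay above all its wild-type readings, the nearest being 3.48 and 3.45. Which of these probe sets follows the transcript more closely was not tested.

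Of the remaining chains none passed in any comparison. Col15a1 and Col18a1, the multiplexins of vessel and adipocyte basement membranes, differed by 0.27 (95% interval -0.22 to 0.76) and 0.17 (-0.02 to 0.36) between knockout-labelled and wild-type arrays on average. Col8a1, a chain of the vascular network type VIII, read 2.07, 2.58 and 2.45 on the knockout-labelled arrays at 4 °C, against 2.86, 2.96 and 2.82 in wild type at 4 °C. These did not overlap, but the difference of -0.51 did not pass (limma adjusted p = 0.158). Col23a1, a transmembrane collagen, read 1.95, 2.58 and 2.10 on the knockout-labelled arrays at 4 °C and 3.04, 2.60 and 2.77 in knockout tissue at room temperature. The difference of -0.60 gave an adjusted p of 0.0784, and 0.0360 without knockout-labelled 4 °C replicate 2. In wild type its cold difference was 0.06, and the cold responses differed by -0.66 (limma adjusted p = 0.443). Over the 44 chains 0 passed the limma test of a difference between the cold responses, beside 0.306% of all probe sets, and 2 had an unadjusted p under 0.05 (Col9a1 and Col23a1), beside 9.77% of all probe sets. Groups did not overlap in the cold for 7 chains higher and 0 lower in wild type, beside 11.6% and 14.3% of all probe sets. In the knockout-labelled arrays 5 were higher and 3 lower, beside 11.7% and 14.1%.

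The arrays with the highest and lowest readings differed between chains. Of the 21 chains above the median on all arrays, 8 read highest on knockout room-temperature replicate 1 (Col1a1, Col1a2, Col3a1, Col4a5, Col6a1, Col6a2, Col6a3 and Col15a1). In turn 8 of the 21 read lowest on wild-type room-temperature replicate 2, namely Col1a1, Col1a2, Col3a1, Col5a1, Col6a3, Col15a1, Col20a1 and Col27a1. Col6a1 and Col6a2 read lowest on knockout room-temperature replicate 3, and Col5a1, Col5a2, Col5a3 and Col27a1 read highest on 4 other arrays. The mean of the 9 fibroblast and preadipocyte markers was 5.71, 5.57 and 5.14 on the knockout room-temperature arrays, and 5.68, 5.19 and 5.85 on the wild-type room-temperature arrays. At 4 °C it was 5.46, 5.41 and 5.61 on the knockout-labelled and 5.59, 5.42 and 5.53 on the wild-type arrays, and 0 of the 9 markers were called in any comparison. Their part in the collagen readings was not tested.

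Several genes that fold collagen and carry it out of the ER rose in the knockout-labelled arrays. The 81 measured genes of collagen synthesis, export, cross-linking, turnover and binding gave 10 higher and 2 lower at 4 °C, beside 3.61% and 2.19% of all probe sets, and 6 higher and 1 lower at room temperature, beside 1.29% and 0.429%. Of 8 genes of export from the ER, 6 rose at 4 °C and 4 at room temperature, and 0 fell. Of 16 genes of folding and hydroxylation, 4 rose and 1 fell at 4 °C, and 2 rose and 0 fell at room temperature. In the other lists (11 genes of propeptide processing and cross-linking, 13 of turnover, 19 of fibril and basement membrane partners, and 14 of receptors and transforming growth factor beta signals) 0 rose and 1 fell at each temperature, Lamb1 at 4 °C and Itga1 at room temperature. Many of the export and folding genes serve secreted proteins in general and not collagen alone.

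Sec24d encodes a cargo-binding subunit of the COPII coat, whose loss disturbs collagen secretion in zebrafish and medaka. It read 8.90, 9.10 and 8.96 on the knockout-labelled arrays at 4 °C, against 6.28, 6.37 and 5.96 in wild type at 4 °C, and 7.10, 7.38 and 7.40 in knockout at room temperature, against 5.51, 5.36 and 5.58 in wild type. The differences were 2.78 ± 0.13 at 4 °C (limma adjusted p = 1.46e-07) and 1.81 ± 0.13 at room temperature (1.2e-05). Sec23a, the partner of Sec24 proteins in the inner coat, rose by 1.19 ± 0.14 at 4 °C and 1.36 ± 0.14 at room temperature, and Sec13 of the outer coat by 1.10 ± 0.14 at 4 °C and 0.88 ± 0.14 at room temperature. Mia3 encodes TANGO1, which loads procollagen into COPII carriers. It rose by 0.76 ± 0.14 at 4 °C (adjusted p = 0.00687) and by 0.73 ± 0.14 at room temperature (0.0229), and the room-temperature call was lost without knockout replicate 2 (0.0765) or 3 (0.0610) or wild-type replicate 1 (0.0699) or 3 (0.0893) of that temperature, and under 3 other settings (up to 0.159, with the conflicting array moved). Tfg, a COPII organiser, rose by 0.94 ± 0.14 at 4 °C and differed by 0.50 ± 0.14 at room temperature (adjusted p = 0.117).

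P4hb encodes protein disulfide isomerase, which is also the beta subunit of the prolyl 4-hydroxylase that stabilises the collagen helix. It rose by 2.17 ± 0.10 in the knockout-labelled arrays at 4 °C (limma adjusted p = 1.46e-07) and by 1.30 ± 0.10 at room temperature (3.05e-05). P4ha1, the catalytic alpha subunit of the same enzyme, went the other way at 4 °C. It read 7.23, 7.24 and 7.02 on the knockout-labelled arrays, against 8.23, 8.13 and 7.51 in wild type at 4 °C (-0.79 ± 0.21, limma adjusted p = 0.0481). That call was lost under 13 of 20 alternatives, among them each single array left out except wild-type 4 °C replicate 3 and wild-type room-temperature replicates 2 and 3, and the adjusted p with the conflicting array moved was 0.753. At room temperature P4ha1 read 6.11, 6.17 and 6.03 in knockout and 5.82, 5.30 and 6.16 in wild type, which overlap (0.34 ± 0.21, adjusted p = 0.562).

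The prolyl 3-hydroxylation complex of P3h1, Crtap and Ppib (cyclophilin B) rose at 4 °C by 0.93 ± 0.14, 0.96 ± 0.24 and 1.56 ± 0.13. At room temperature Ppib rose by 0.71 ± 0.13 (limma adjusted p = 0.0161), while P3h1 (0.24 ± 0.14) and Crtap (0.34 ± 0.24) did not pass. The Crtap call at 4 °C (adjusted p = 0.0334) was lost without knockout-labelled replicate 2 (0.0913) or 3 (0.142) or wild-type replicate 1 (0.116) or 2 (0.115) of that temperature, and under 3 other settings (up to 0.210). That of Ppib at room temperature was lost without knockout replicate 2 (0.0628) or wild-type replicate 3 (0.0670) of that temperature, and with the conflicting array moved (0.113). Serpinh1, which encodes the collagen-specific chaperone HSP47, read 5.73, 5.93 and 5.98 on the knockout-labelled arrays at 4 °C, against 5.71, 5.23 and 5.42 in wild type at 4 °C. The difference of 0.43 ± 0.18 did not pass (limma adjusted p = 0.250), nor did 0.25 ± 0.18 at room temperature (0.649). Sparc, a collagen-binding glycoprotein, differed by 0.22 ± 0.13 at 4 °C (0.453).

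**Figure D4:**
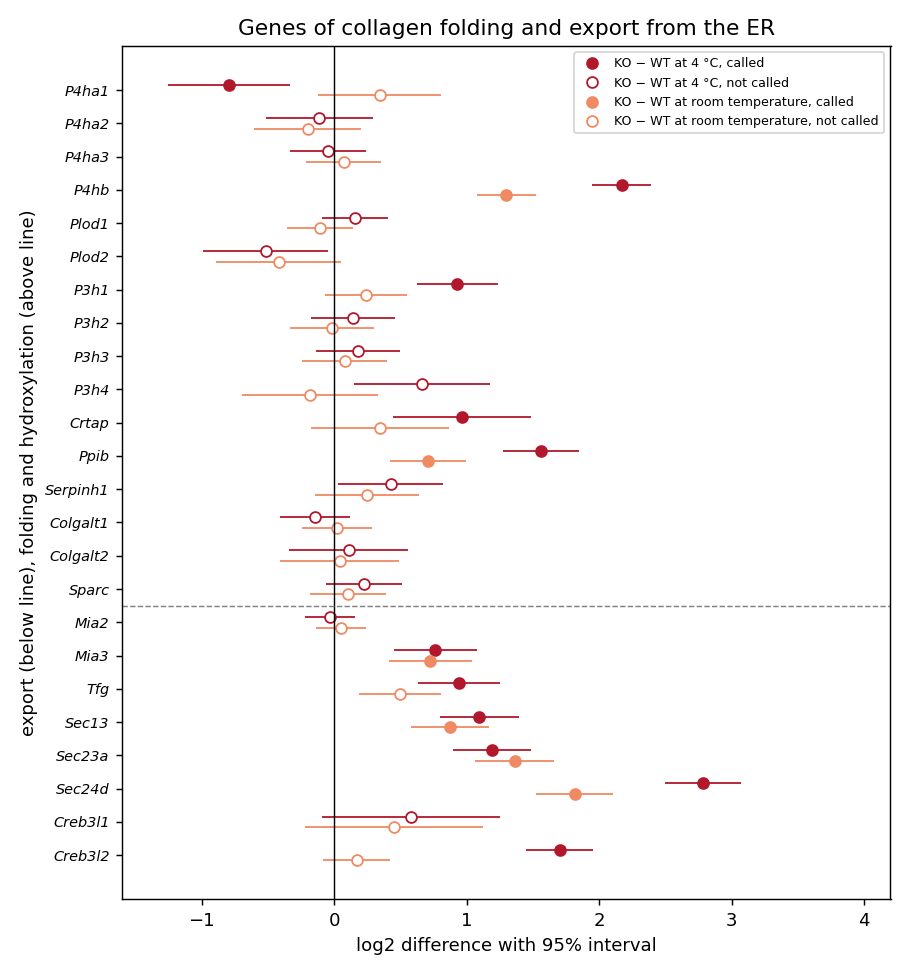
Log2 differences, knockout (KO) minus wild type (WT), with 95% intervals for 24 genes that fold and hydroxylate collagen (above the dashed line) or act in its export (below it), at 4 °C (dark red) and at room temperature (orange). Filled points passed the test. Sec24d and P4hb lie farthest to the right at 4 °C, at 2.78 and 2.17, and P4ha1 is the filled point left of 0, at -0.79.

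The hydroxylase genes P4ha1 and Plod2 and the cross-linking gene Lox rose in the cold under both genotype labels. Of the 81 genes, 11 rose and 4 fell in the knockout-labelled arrays and 8 rose and 9 fell in wild type, beside 4.32% and 4.70%, and 4.85% and 6.23%, of all probe sets. Among the 16 folding and hydroxylation genes, 3 rose and 1 fell in the knockout-labelled arrays, and 2 rose and 4 fell in wild type. Among the 11 propeptide processing and cross-linking genes, 1 rose and 1 fell under each genotype label. P4ha1 rose by 1.06 ± 0.21 in the knockout-labelled arrays (limma adjusted p = 0.00815) and by 2.19 ± 0.21 in wild type (0.000110). The difference between these responses, -1.14 ± 0.30, did not pass (adjusted p = 0.167). Plod2, a lysyl hydroxylase that prepares collagen for cross-linking, rose by 1.59 ± 0.22 in the knockout-labelled arrays and 1.69 ± 0.22 in wild type.

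Lox, the lysyl oxidase that cross-links collagen and elastin, read 7.45, 7.20 and 6.86 on the knockout-labelled arrays at 4 °C and 5.60, 5.60 and 6.23 in knockout tissue at room temperature (1.36 ± 0.24, limma adjusted p = 0.00334). In wild type it read 6.58, 6.91 and 6.36 at 4 °C and 5.37, 5.69 and 6.15 at room temperature (0.88 ± 0.24, 0.0309). The wild-type call was lost without wild-type 4 °C replicate 1 (0.0760) or 2 (0.128) or wild-type room-temperature replicate 1 (0.127) or 2 (0.0875), and under 4 other settings, the replicate block among them (0.0524). Thbs1, the matricellular thrombospondin 1, rose by 2.74 ± 0.36 in the knockout-labelled arrays and 2.38 ± 0.36 in wild type. Itga1, the alpha 1 subunit of a collagen-binding integrin, fell by 0.83 in the knockout-labelled arrays and by 1.11 in wild type. With the conflicting array moved to 4 °C, the wild-type cold calls of P4ha1 (0.108), Plod2 (0.0632), Lox (0.123), Thbs1 (0.0641) and Itga1 (0.290) were lost, as were those of P4ha1 (0.190) and Itga1 (0.134) in the knockout-labelled arrays.

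A set of proteases, their inhibitor and a receptor fixed for description were not called by genotype. Mmp2, a gelatinase, differed by -0.15 ± 0.18 at 4 °C and -0.03 ± 0.18 at room temperature. Mmp14, its membrane-bound activator, differed by -0.02 ± 0.18 at 4 °C and -0.19 ± 0.18 at room temperature. The inhibitor Timp1 differed by 0.24 ± 0.16 at 4 °C and 0.12 ± 0.16 at room temperature, and the collagen receptor Ddr2 by 0.42 ± 0.30 at 4 °C and 0.29 ± 0.30 at room temperature. Timp1 read below the array median on all 12 arrays. Lamb1 fell by 0.69 in the knockout-labelled arrays at 4 °C (limma adjusted p = 0.0222), a call lost without knockout-labelled 4 °C replicate 1 (0.0652), 2 (0.0709) or 3 (0.0739), wild-type 4 °C replicate 1 (0.0988), or with the array moved (0.492). Itga1 fell by 0.56 in knockout at room temperature (0.0453), a call lost under 14 of 20 alternatives (up to 0.698). Thbs1 was 1.14 ± 0.26 higher in the knockout-labelled arrays on average over temperature (limma adjusted p = 0.0173), while within 4 °C its difference of 1.32 ± 0.36 gave an adjusted p of 0.0541.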

How the data were processed

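Per the submitters' processing notes, the deposited log2 expression values were made by the authors with RMA, which corrects background, quantile-normalizes arrays and summarises probes into probe sets. The RMA version and the genome build are not given in the sources used here. In all, 41345 probe sets were read on 12 arrays, of which 23521 carry 1 gene symbol in the platform annotation, 1814 several and 16010 none, and only the 23521 were tested. Scanner files were not used here, so neither background nor saturation of single probes was assessed, and precision is limited by the number of arrays. Arrays of a group correlated at 0.985 to 0.993 over probe sets.

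The linear model held a mean for each group and used the 12 arrays together (limma 3.58.1, R 4.3.3, functions lmFit, contrasts.fit and eBayes; 8 residual degrees of freedom, prior 4.45), without a filter on brightness. P-values were Benjamini-Hochberg adjusted over the 23521 probe sets, and an adjusted p under 0.05 was a call. The labels do not say that replicates are separate animals, so the p-values reflect only how these arrays vary, which may be technical. Differences are knockout minus wild type and 4 °C minus room temperature. Groups came from the sample titles. The fit was tested on simulated data.

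Named chains were those called in any of 7 comparisons, the 3 largest differences of each, and fixed chains of adipose matrix; named partners were those called by genotype or in the interaction, and fixed genes of collagen biology. Collagen genes named only in lists of unadjusted p or non-overlap, Col4a5 and the partner gene Lama4 fall outside that rule and were chosen after their values were seen. The members and lists were chosen with earlier results of these data known. Among the listed partners, Plod3, Fkbp10, Adamts2, Loxl2, Mmp15 and Itga10 were not analysed here. Of 8 lists of cell type markers, those of mesothelium (5 genes), skeletal muscle (12) and fibroblasts (9) gave 0 calls. Muscle markers had residual SDs up to 2.55 and a median difference by genotype of -2.30 at room temperature, so 0 calls there says little. The list of Schwann cells and nerve (5) gave 1 lower in the cold in wild type. The 10 adipocyte markers gave 2 higher and 1 lower in the cold in wild type, and 2 higher in the knockout-labelled arrays. By genotype at 4 °C, 2 of them were lower in the knockout-labelled arrays. The 9 macrophage markers gave 1 higher in each cold comparison within a genotype, and 2 mural markers fell in wild type and 1 in the knockout-labelled arrays. Over all probe sets 4.85% rose and 6.23% fell in the cold in wild type, and 4.32% and 4.70% in the knockout-labelled arrays. By genotype at 4 °C, 2.19% were lower. On average over genotype, 2 adipocyte, 2 macrophage, 3 endothelial and 1 mural marker rose in the cold, beside 7.51%. In turn 3 adipocyte, 3 endothelial and 3 mural markers fell, beside 10.1%. On average over temperature 1 mural marker was lower in the knockout-labelled arrays, beside 2.73%.

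Promoter sequences are RefSeq's (GRCm38.p6). Alternatives were a filter on dim probe sets, all probe sets, eBayes with trend and robust settings, only the 6 arrays compared, each array left out, the array with conflicting labels moved, the replicate number as a block, renewed quantile normalization, and the mean of a gene's probe sets.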

Additional observations from a re-analysis of the deposited data

Results flagged for a closer look

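None of the 44 collagen chains had cold responses that differed between the genotypes by the test of that difference. Among the partner genes it was passed by a pair. Creb3l2 encodes an ER-anchored transcription factor that activates genes of collagen export, Sec23a among them. It read 6.36, 6.64 and 6.71 on the knockout-labelled arrays at 4 °C and 5.60, 5.65 and 5.46 in knockout tissue at room temperature, while in wild type it read 5.01, 4.77 and 4.82 at 4 °C and 5.44, 5.37 and 5.38 at room temperature. It rose by 1.00 ± 0.12 in the cold in the knockout-labelled arrays and fell by 0.53 in wild type, and the difference between these responses was 1.53 ± 0.16 (limma adjusted p = 0.00169; 0.0613 with the array of conflicting labels moved). P4hb rose by 0.56 ± 0.10 in the knockout-labelled arrays and differed by -0.31 ± 0.10 in wild type (adjusted p = 0.0802). The difference between these responses was 0.87 ± 0.15 (limma adjusted p = 0.0311), and it was lost under 13 of 19 alternatives, including each array left out except knockout room-temperature replicate 2 and wild-type 4 °C replicate 3 (up to 0.235, with the array moved). Both rest on the genotype label at 4 °C.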

How the results depend on the processing

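The counts of called chains were 0 for genotype at room temperature, 0 for genotype at 4 °C, 3 for cold in wild type, 1 for cold in the knockout-labelled arrays, 0 for the difference between the cold responses, 1 for genotype on average and 4 for cold on average. With the array of conflicting labels moved to 4 °C they were 0 for cold in wild type, 0 for cold in the knockout-labelled arrays and 2 for cold on average. With only the 6 arrays compared, cold in the knockout-labelled arrays gave 3 (Col4a1, Col4a2 and Col12a1), and with all probe sets tested, cold on average gave 2, which the larger adjustment lowers. Leaving out each replicate in turn gave 0 to 0 chains for genotype at room temperature, 0 to 1 at 4 °C, 2 to 3 for cold in wild type, 0 to 2 for cold in the knockout-labelled arrays, 0 to 0 for the difference between them, 0 to 2 for genotype on average and 2 to 5 for cold on average. The cause of these changes was not tested. Over the named chains and their alternatives, calls were lost 32 times and gained 7 times, and no call of a named gene changed direction. Over the named chains and named partner genes together, 217 of 3895 recomputed differences that were not calls changed sign. With the replicate block the counts of chains were the same (0, 0, 3, 1, 0, 1 and 4), and partner calls were lost for Itga1 at room temperature (0.0668), P4ha1 at 4 °C (0.0754) and P4hb in the difference between responses (0.0762). A pairing of arrays by replicate number was not seen. Same-numbered arrays of different groups correlated at -0.18 to 0.16 in their deviations from the group means, and different-numbered ones at -0.30 to 0.25. Of the 12 arrays, 5 correlated best with their own number. These values cannot exclude a weaker link between same-numbered arrays.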
